A study of Mus musculus with 2 samples.

Results

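The cartilage collagens II, IX and XI were followed through their 6 genes, Col2a1, Col9a1, Col9a2, Col9a3, Col11a1 and Col11a2, which are 6 of the 32286 features listed in both count matrices. They were listed by symbol, as the genes of these 3 collagens, and all 6 were detected in both libraries. The study sorted CD45-, Ter119-, CD31-, DAPI- and tdTomato+ cells from knee joint cartilage of Procr-CreER;tdTomato mice, in which tamoxifen activates a Cre recombinase driven by Procr and the red reporter tdTomato then marks those cells and their descendants. The pulse group was collected 2 days after tamoxifen given at 4 weeks of age, and the trace group 4 weeks after the same treatment. Each group was 1 droplet single-cell RNA library of cells pooled from 3 mice, and both groups carried the driver and the reporter and received tamoxifen. With 1 library per group there is no test across animals and no p-value. Each interval below is an exact 95% interval that covers counting error only.

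Type II collagen is the main fibril-forming collagen of cartilage and is a homotrimer of the Col2a1 product. Type XI collagen is a minor fibril-forming collagen built from the products of Col11a1, Col11a2 and Col2a1, and it helps to set how thick the fibrils grow. Type IX collagen is a heterotrimer of the Col9a1, Col9a2 and Col9a3 products that sits on the fibril surface and links fibrils to other matrix molecules. The transcription factors SOX9, SOX5 and SOX6 are well-known activators of this gene set in chondrocytes.

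On mouse build GRCm38 the genes lie on separate chromosomes. Col2a1 spans chr15:97975602-98004695 on the minus strand. The other members are on the plus strand: Col9a1 at chr1:24177610-24252684, Col9a2 at chr4:121039385-121055322, Col9a3 at chr2:180597790-180622189, Col11a1 at chr3:114030540-114220718 and Col11a2 at chr17:34039437-34066685. The end of Col9a3 overlaps Tcfl5, which is on the opposite strand, by 234 bases, and whether counting used strand is not given in the sources used here. RefSeq promoter windows (GRCm38.p6) were at hand for 4 of the 6 genes, Col9a1, Col9a2, Col11a1 and Col11a2. The 250 bases before the start site are shown for Col9a1 (its upstream start site, chr1:24177360-24177609) and Col11a2 (chr17:34038888-34039137), the genes with the lowest trace-over-pulse ratios in Prg4-high chondrocyte-like cells below. Those of Col11a1 (chr3:114030290-114030539), the partner of Col11a2 with the ratio nearest 1 there, are shown for comparison. All 3 windows are on the plus strand. The windows of Col9a1 and Col11a1 end at the base before the gene spans given above. That of Col11a2 precedes a start site upstream of its span: the window ends at 34039137 and the span begins at 34039437. Capitals mark matches, on either strand, to any of 4 hexamers that do not overlap one another here: the SOX-type motifs ACAATG and ACAAAG, the GC box GGGCGG and the TATA-type motif TATAAA.
Col9a1: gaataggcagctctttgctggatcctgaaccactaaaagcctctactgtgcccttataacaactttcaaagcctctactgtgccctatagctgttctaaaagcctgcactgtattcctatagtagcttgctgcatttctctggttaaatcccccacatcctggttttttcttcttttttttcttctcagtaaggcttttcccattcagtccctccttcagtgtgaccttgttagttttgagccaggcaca
Col11a2: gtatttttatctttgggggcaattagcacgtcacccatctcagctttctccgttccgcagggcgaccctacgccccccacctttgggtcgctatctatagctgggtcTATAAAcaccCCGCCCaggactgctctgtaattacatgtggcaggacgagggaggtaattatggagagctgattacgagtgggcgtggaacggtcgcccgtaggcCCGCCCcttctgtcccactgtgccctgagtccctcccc
Col11a1: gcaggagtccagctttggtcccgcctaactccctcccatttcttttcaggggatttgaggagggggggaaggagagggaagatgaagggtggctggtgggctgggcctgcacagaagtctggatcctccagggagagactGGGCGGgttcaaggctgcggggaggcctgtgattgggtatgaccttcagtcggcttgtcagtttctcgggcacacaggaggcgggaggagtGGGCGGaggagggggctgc
The Col9a1 window held none of the 4 hexamers. The Col11a2 window held 2 GC boxes, both read on the minus strand, and 1 TATA-type motif, and the Col11a1 window held 2 GC boxes. Of 32851 mouse promoter windows of the same length, 32.7% held GGGCGG, 12.4% TATAAA, 16.5% ACAAAG and 10.7% ACAATG. These matches describe the letters of the windows.

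After the filter of 500 or more detected genes and 10% or less mitochondrial UMIs (unique molecular identifiers, 1 per captured transcript), 6533 pulse and 9247 trace cells remained, with a median of 2837 and 3645 UMIs per cell. The libraries shared 16 cell barcodes, 15 of them among the kept cells. Transcripts associated with ribosomal RNA made up 0.961% of kept pulse UMIs and 8.89% of kept trace UMIs. Xist, which is transcribed from the inactive X chromosome, had 3 UMIs in pulse and 14149 in trace, and the Y-linked gene Ddx3y had 4246 and 13. Time since tamoxifen, age at collection, sex-linked transcripts, ribosomal RNA and library all move together and cannot be told apart as sources of a difference between pulse and trace.

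Cells were assigned by marker genes that do not include the 6 collagens. A chondrocyte-like cell had 3 or more UMIs, from 2 or more genes, of Acan, Hapln1, Snorc, Cnmd, Sox9, Chad, Matn3, Matn1, Epyc and Ucma. If it also passed another marker list by this rule, it had at least 4 times as many UMIs of the chondrocyte list. These cells were then ordered by Prg4, which encodes lubricin, the boundary lubricant of the superficial zone of articular cartilage. Prg4-high cells had 30 or more Prg4 UMIs per 10000 (2598 in pulse and 3936 in trace), Prg4-intermediate cells 10 to 30 (793 and 272), and Prg4-low cells fewer than 10 (1597 and 513). These are ranges of a score and not cell types: 321 pulse and 113 trace chondrocyte-like cells had 25 to 35 Prg4 UMIs per 10000, and 226 and 75 had 8 to 12. Chondrocyte-like cells were 4988 of the pulse cells and 4721 of the trace cells, so the label of superficial cartilage cells covers the Prg4-high cells best and does not describe all of the rest. Although the sort was against CD45, CD31 and Ter119, 529 trace cells and 6 pulse cells carried blood cell markers, and 320 and 61 carried endothelial markers.

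All 6 transcripts were present in all 3 chondrocyte-like ranges of both libraries, and each was higher in Prg4-low than in Prg4-high cells. Col2a1 in Prg4-low cells reached 21072 CPM in pulse and 9066 in trace, where CPM is the UMIs of a gene in 1000000 UMIs of the summed cells. In Prg4-intermediate cells it stood at 6731 and 3133 CPM. In Prg4-high cells it stood at 4793 and 2678 CPM. Col2a1 was thus 4.40-fold (4.35 to 4.44) higher in Prg4-low than in Prg4-high cells of the pulse library and 3.39-fold (3.33 to 3.44) higher in trace. Since Prg4 set the ranges and the collagens did not, these differences are measurements on genes that the assignment did not use.

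Among the type IX genes, Col9a1, whose chain is known to be needed for the trimer to assemble, differed most between the ranges. Col9a1 had 2554 CPM in pulse Prg4-low cells and 72.9 CPM in pulse Prg4-high cells. In trace the levels were 857 and 9.52 CPM. The ratio of Prg4-low to Prg4-high was therefore 35.02 (32.3 to 38.0) in pulse and 89.97 (77.3 to 105) in trace, whereas the same ratio for the other 5 genes lay between 2.47 and 7.89. Col9a2 had 1375 and 174 CPM in Prg4-low and Prg4-high pulse cells, and 831 and 113 CPM in trace. Col9a3 had 1378 and 245 CPM in pulse and 753 and 162 CPM in trace. These partner chains therefore differed between the ranges by 4.66-fold to 7.89-fold, with neither library's interval reaching that of Col9a1.

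Of the type XI genes, Col11a1 had 4446 CPM in Prg4-low and 1130 CPM in Prg4-high cells of the pulse library, and 2244 and 909 CPM in trace. Col11a2 had 3736 and 533 CPM in pulse, and 1109 and 172 CPM in trace. Col11a1 thus had the flattest profile of the 6, at 3.94-fold (3.85 to 4.02) in pulse and 2.47-fold (2.40 to 2.54) in trace, and Col11a2 was steeper at 7.01-fold and 6.46-fold.

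**Figure D1:**
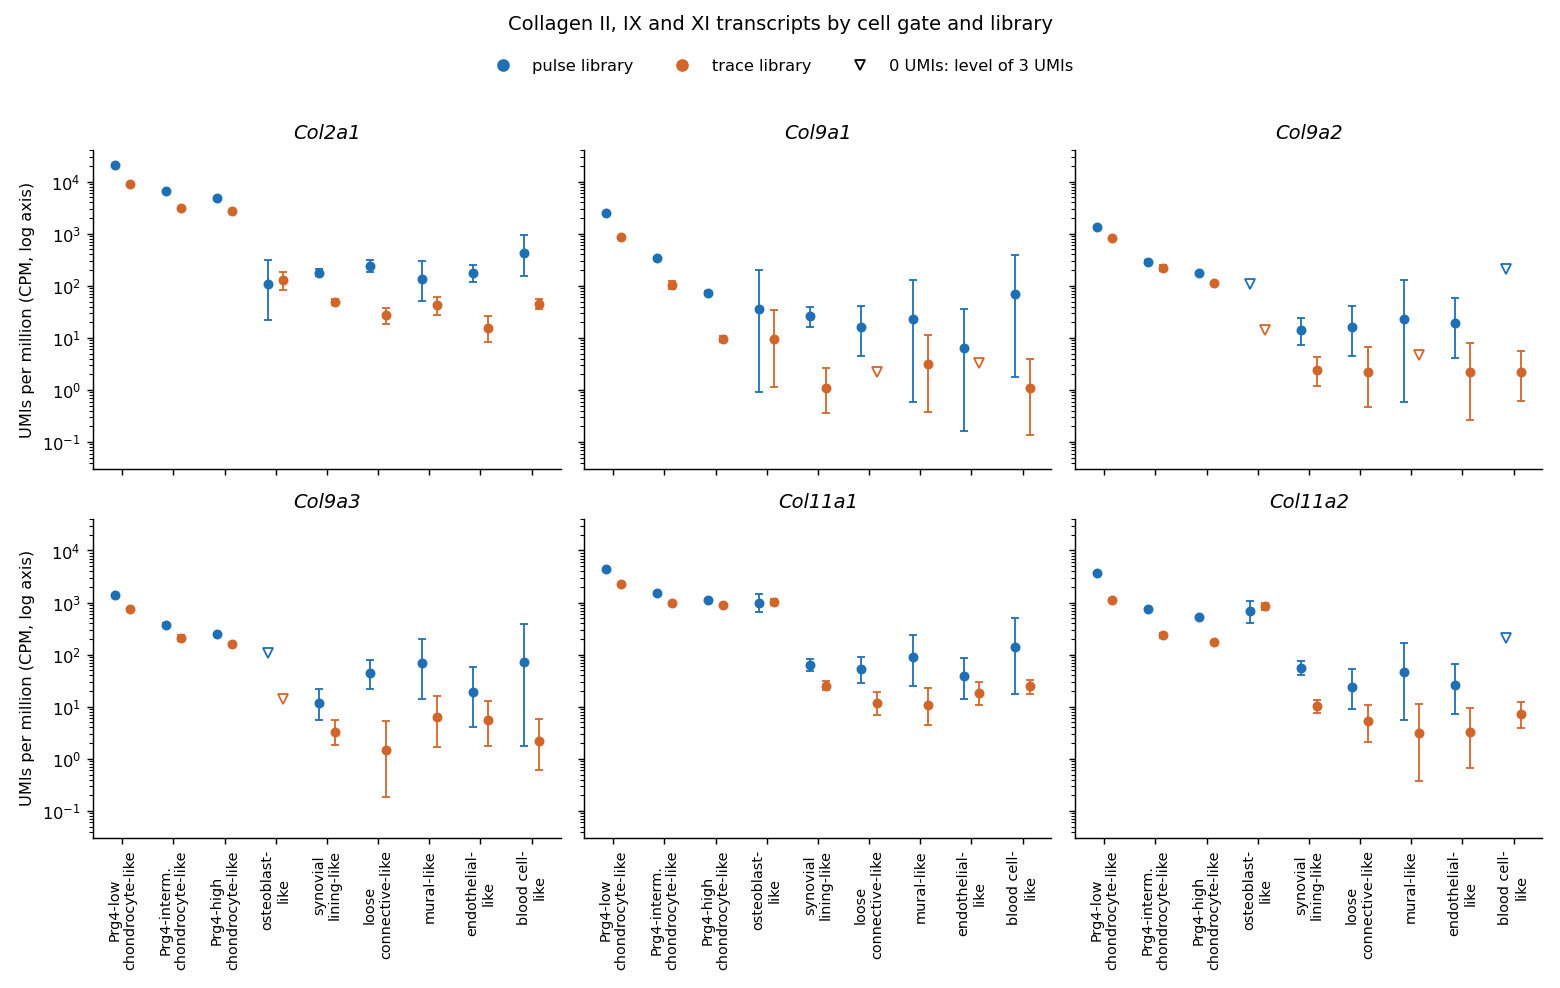
Level of each collagen gene (CPM, log axis) in 9 marker-defined groups of cells, pulse in blue and trace in orange; points are summed UMIs of 1 library with exact 95% counting intervals, and open triangles mark groups with 0 UMIs at the level of 3 UMIs. In all 6 panels the points step down from Prg4-low to Prg4-high cells, and Col11a1 and Col11a2 are at 677 to 1020 CPM in osteoblast-like cells, where the other 4 genes are at 127 CPM or less.

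Prg4 itself was next used as a finer scale over the chondrocyte-like cells. Col2a1 went from 23960 CPM in pulse cells with fewer than 3 Prg4 UMIs per 10000 to 3036 CPM in cells with 300 or more, and from 10213 to 1964 CPM in trace. It was lower in each successive pulse bin, and in trace it was level between 10 and 300 (3133, 3310 and 3011 CPM in the 3 bins). Col9a1 spanned the widest range, from 3028 to 24.4 CPM in pulse and from 973 to 4.00 CPM in trace. Col11a1 flattened out at high Prg4, with 1149, 1101 and 1144 CPM in the 3 pulse bins from 30 upward. By point values the trace level was below the pulse level in all 6 bins for Col2a1, Col9a3, Col11a1 and Col11a2. The bin from 3 to 10 held 445 pulse and 180 trace cells. There Col9a2 was higher in trace, at 629 (574 to 689) against 408 (377 to 441) CPM. The interval of the trace-over-pulse ratio included 1 there for Col9a1 (546 and 564 CPM), Col9a3 (504 and 482 CPM) and Col11a1 (1891 and 1802 CPM). At 300 or more it included 1 for Col9a2 (ratio 0.832, 0.660 to 1.06) and Col9a3 (0.860, 0.683 to 1.10).

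**Figure D2:**
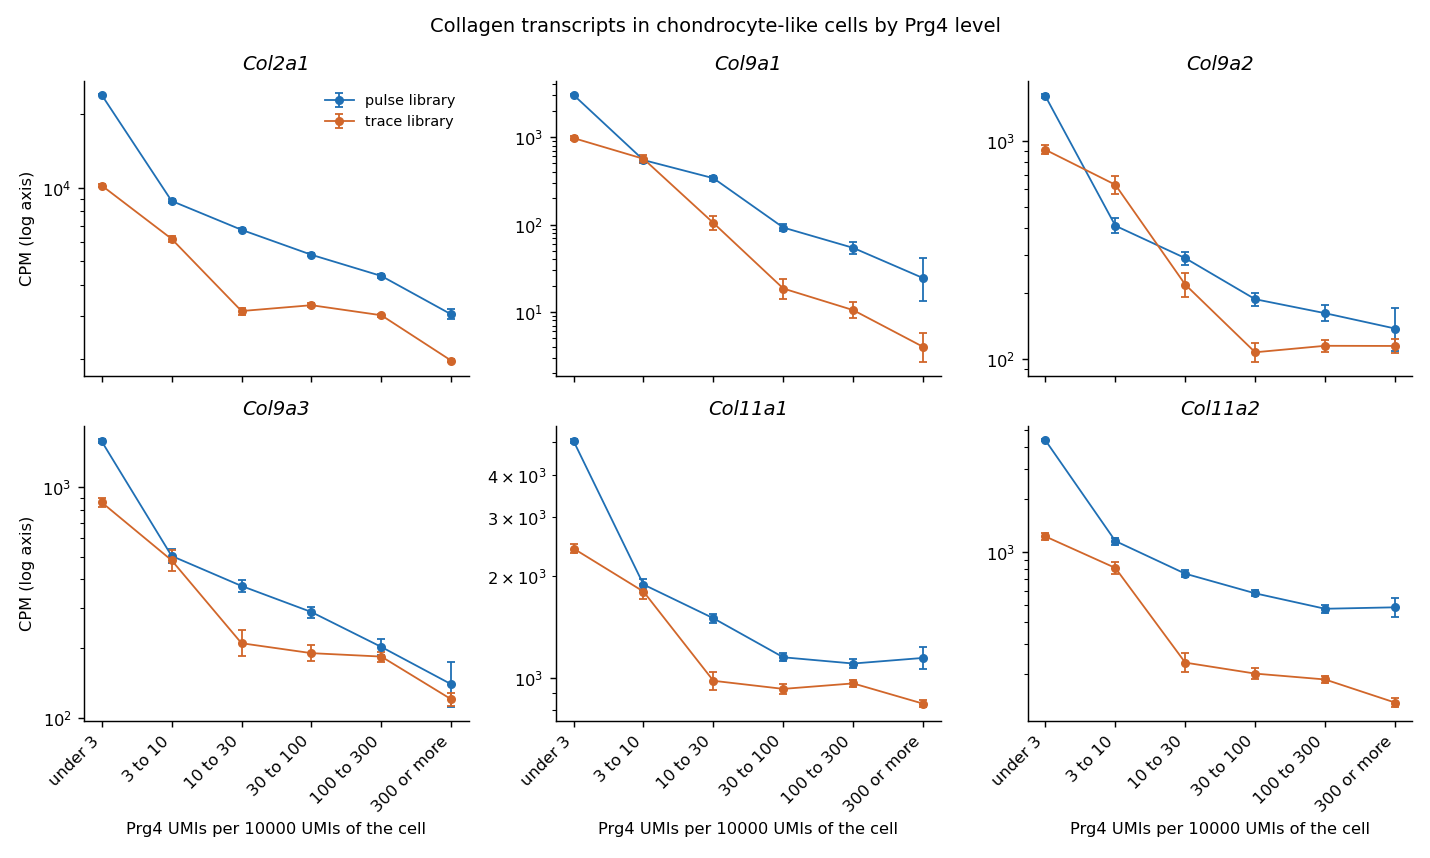
Level of each collagen gene (CPM, log axis) in chondrocyte-like cells divided into 6 bins by their Prg4 UMIs per 10000, with exact 95% counting intervals; lines only join the bins of 1 library. Levels are highest in the bin with fewer than 3 Prg4 UMIs for every gene, and the pulse and trace lines cross only for Col9a1 and Col9a2, in the bin from 3 to 10.

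The pulse and trace libraries were compared within the Prg4-high and Prg4-low ranges to ask how the labelled cells differed after the 4-week chase. All 6 collagens were lower in trace in both ranges. In Prg4-high cells, 2 of the 6 genes were at least 2-fold lower in trace, Col9a1 and Col11a2, and none was 2-fold higher. Of 6240 genes with 20 CPM or more in either library, 8.83% were at least 2-fold lower and 2.00% at least 2-fold higher, and the median log2 ratio was -0.24 over all of them against -0.73 over the 6 collagens. In Prg4-low cells, 3 of the 6 were at least 2-fold lower, Col2a1, Col9a1 and Col11a2, beside 12.7% of 6548 genes at least 2-fold lower and 2.98% at least 2-fold higher. There the median log2 ratio was -0.31 over all genes and -1.10 over the collagens.

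Col9a1 in Prg4-high cells had the lowest ratio of the set. It was read as 614 UMIs in pulse and 181 in trace, a level 7.66-fold lower in trace (6.48 to 9.09). The top 1% of cells held 46.7% of these UMIs in pulse, where 1 cell had 57, and 70.7% in trace. Only 15 of the 6240 genes measured in these cells (0.240%) had a lower ratio. In Prg4-low cells Col9a1 was 2.98-fold lower in trace (2.85 to 3.12), with 314 of 6548 genes below it, and in Prg4-intermediate cells 3.25-fold lower (2.68 to 3.97). Trace Prg4-high cells had more Prg4 than pulse ones, at 29201 against 12584 CPM, and 1376 of 3936 trace but 188 of 2598 pulse cells had 300 or more Prg4 UMIs per 10000. Within single Prg4 bins Col9a1 was less far apart by its point values: 4.98-fold (3.81 to 6.61) lower in trace from 30 to 100, 5.15-fold (3.98 to 6.71) from 100 to 300 and 6.11-fold, with a lower bound of 2.97, at 300 or more. The bins were chosen as a comparison after seeing the data.

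Col11a2 was lower in trace by a like factor in all 3 ranges. The factor was 3.11 (2.97 to 3.25) in Prg4-high, 3.22 (2.83 to 3.68) in Prg4-intermediate and 3.37 (3.24 to 3.50) in Prg4-low cells. Its partner Col11a1 was 1.24-fold (1.21 to 1.27) lower in Prg4-high cells and 1.98-fold (1.93 to 2.04) lower in Prg4-low cells. In Prg4-high cells 44.2% of measured genes had a lower ratio than Col11a1, so that its ratio lay near the middle of all genes. Col2a1 was 1.79-fold (1.77 to 1.81) lower in trace in Prg4-high and 2.32-fold (2.29 to 2.36) lower in Prg4-low cells. Col9a2 was 1.54-fold and 1.66-fold lower in the same ranges, and Col9a3 1.51-fold and 1.83-fold lower.

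When the libraries were scaled so that the median ratio over all genes was 1, the 6 genes were still lower in trace in both ranges. Col11a1 in Prg4-high cells then had a log2 ratio of only -0.07, and Col2a1 in Prg4-low cells moved from -1.22 to -0.91 and no longer reached 2-fold. Under that scaling 346 genes were at least 2-fold lower and 268 higher in Prg4-high cells, against 551 and 125 without it, and in Prg4-low cells 478 and 387 against 833 and 195.

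The Prg4 ranges did not hold the same kinds of cells in both libraries, which was seen by clustering all cells without the 6 genes. Of Prg4-low cells, 49.7% in pulse and 50.1% in trace lay in the clusters named deeper-zone-like by their markers (clusters 7, 13 and 15), but cluster 13 alone held 17.7% of the pulse cells and 1.17% of the trace cells. Cluster 3, led by Chil1 and Col10a1 among others, held 27.6% of Prg4-low pulse cells and 0.975% of trace cells. Cluster 8, led by the osteoblast genes Bglap and Col1a1, held 1.06% and 14.0%. Of Prg4-high cells, clusters 1, 2 and 3 held 94.6% in pulse and 91.5% in trace, but cluster 2 alone held 20.5% and 32.0%. Of these, clusters 1 and 2 stayed unnamed and cluster 3 was superficial-zone-like.

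Within single clusters all 6 genes were again lower in trace, although for Col9a2 and Col9a3 in cluster 3 the interval included 1. In cluster 7, which held 418 pulse and 246 trace Prg4-low cells, Col2a1 was at 29217 CPM in pulse and 11630 in trace, a ratio of 0.398 (0.391 to 0.405). There Col9a1 had a ratio of 0.372, Col11a2 of 0.364 and Col11a1 of 0.492 (0.475 to 0.508), and Col9a2 of 0.722. Among Prg4-high cells, Col11a2 had ratios of 0.351, 0.301 and 0.350 in clusters 1, 2 and 3, and Col2a1 of 0.556, 0.547 and 0.543, so that both were nearly alike from cluster to cluster. Col9a1 was not: its ratio was 0.0981 (0.0659 to 0.142) in cluster 1, 0.128 (0.0927 to 0.174) in cluster 2 and 0.387 (0.241 to 0.615) in cluster 3, from as few as 33 trace UMIs. Col9a2 and Col9a3 had ratios of 0.902 (0.744 to 1.09) and 0.909 (0.781 to 1.06) in cluster 3.

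**Figure D3:**
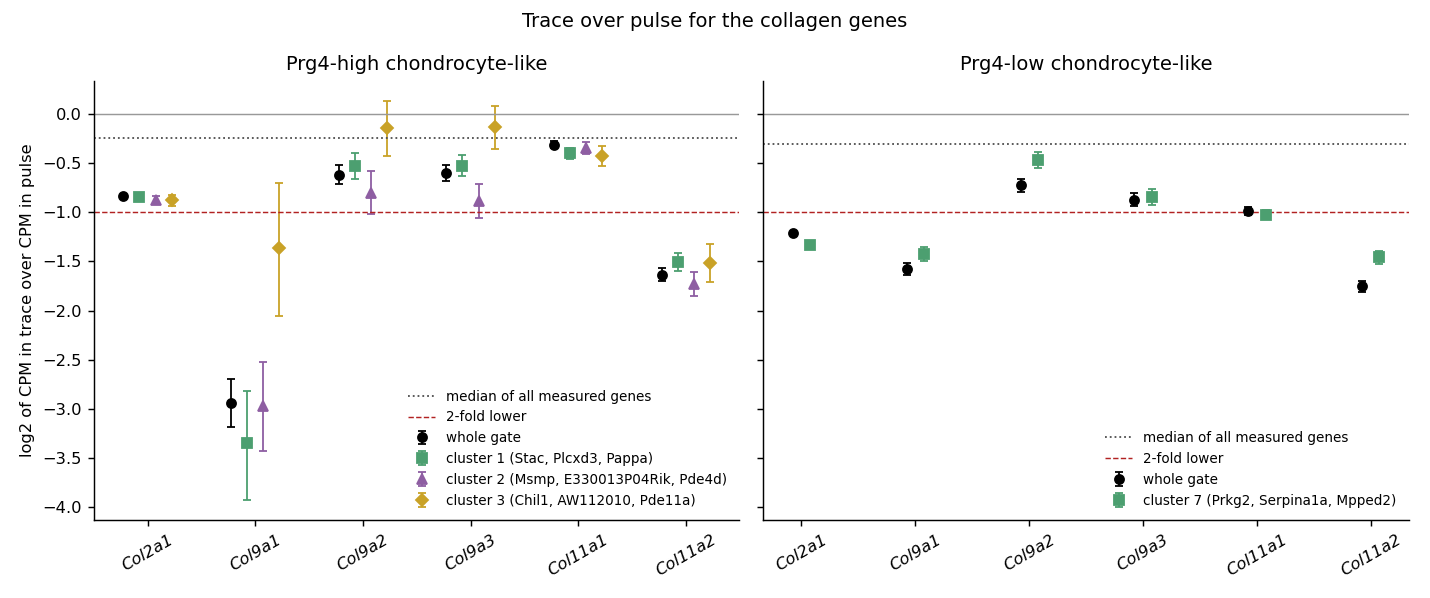
Log2 ratio of trace over pulse for each gene in Prg4-high (left) and Prg4-low (right) chondrocyte-like cells, for the whole range (black circles) and for the cells of single clusters (coloured symbols, named by leading genes), with exact 95% counting intervals. Every point is below 0, Col9a1 and Col11a2 are below the 2-fold line in each set, and the Col9a1 point of cluster 3 is above those of clusters 1 and 2.

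The chains of 1 collagen were then set against each other by the ratio of their UMIs within the same cells, which library size cannot move. UMIs count transcript ends and are not scaled by length, so a ratio is compared between groups of cells and is not read as a number of chains. Col9a3 over Col9a2 was 1.40 in pulse and 1.43 (1.35 to 1.51) in trace Prg4-high cells, with overlapping intervals. In Prg4-low cells it was 1.00 (0.977 to 1.03) and 0.907 (0.853 to 0.964). Prg4-intermediate cells had 1.29 (1.17 to 1.41) and 0.959. The proportion of these 2 chains was therefore alike in both libraries in Prg4-high cells and somewhat lower in trace in the other ranges, and it was higher in Prg4-high than in Prg4-low cells.

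Col9a1 over Col9a2 moved far more. Prg4-low cells had 1.86 (1.82 to 1.90) in the pulse library and 1.03 (0.972 to 1.09) in the trace library. In Prg4-high cells it was 0.418 (0.380 to 0.460) and 0.0840 (0.0718 to 0.0978). Intermediate cells lay between, at 1.17 (1.06 to 1.29) in pulse and 0.476 in trace. The lower ratio in trace was seen inside single clusters too: 0.215 against 0.0304 in cluster 1, 0.518 against 0.116 in cluster 2, 0.275 against 0.118 in cluster 3 and 1.95 against 1.00 in cluster 7, with no overlap of the intervals in any of them.

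Col11a2 over Col11a1 also differed between the libraries. Prg4-low cells had 0.840 (0.828 to 0.853) in the pulse library and 0.494 (0.473 to 0.517) in the trace library. The values were 0.472 (0.455 to 0.489) and 0.189 (0.182 to 0.196) in Prg4-high cells. In clusters 1, 2 and 3 the ratio was 0.503, 0.363 and 0.419 in pulse and 0.234, 0.139 and 0.198 in trace. In cluster 7 it was 0.714 and 0.528. In each of these sets of cells trace had proportionally fewer Col11a2 than Col11a1 UMIs. Col11a1 over Col2a1 went the other way, from 0.236 (0.230 to 0.241) in pulse to 0.339 (0.334 to 0.345) in trace Prg4-high cells, and from 0.211 to 0.248 in Prg4-low cells.

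Seen as shares of the UMIs of all 6 genes, Col2a1 made up 69.0% in pulse and 66.2% in trace Prg4-high cells, and 61.0% in Prg4-low cells of both libraries. Col11a1 supplied 16.3% and 22.5% in Prg4-high cells, and Col11a2 7.67% and 4.24%. Col9a1 supplied 1.05% and 0.236% there but 7.39% and 5.77% in Prg4-low cells.

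**Figure D4:**
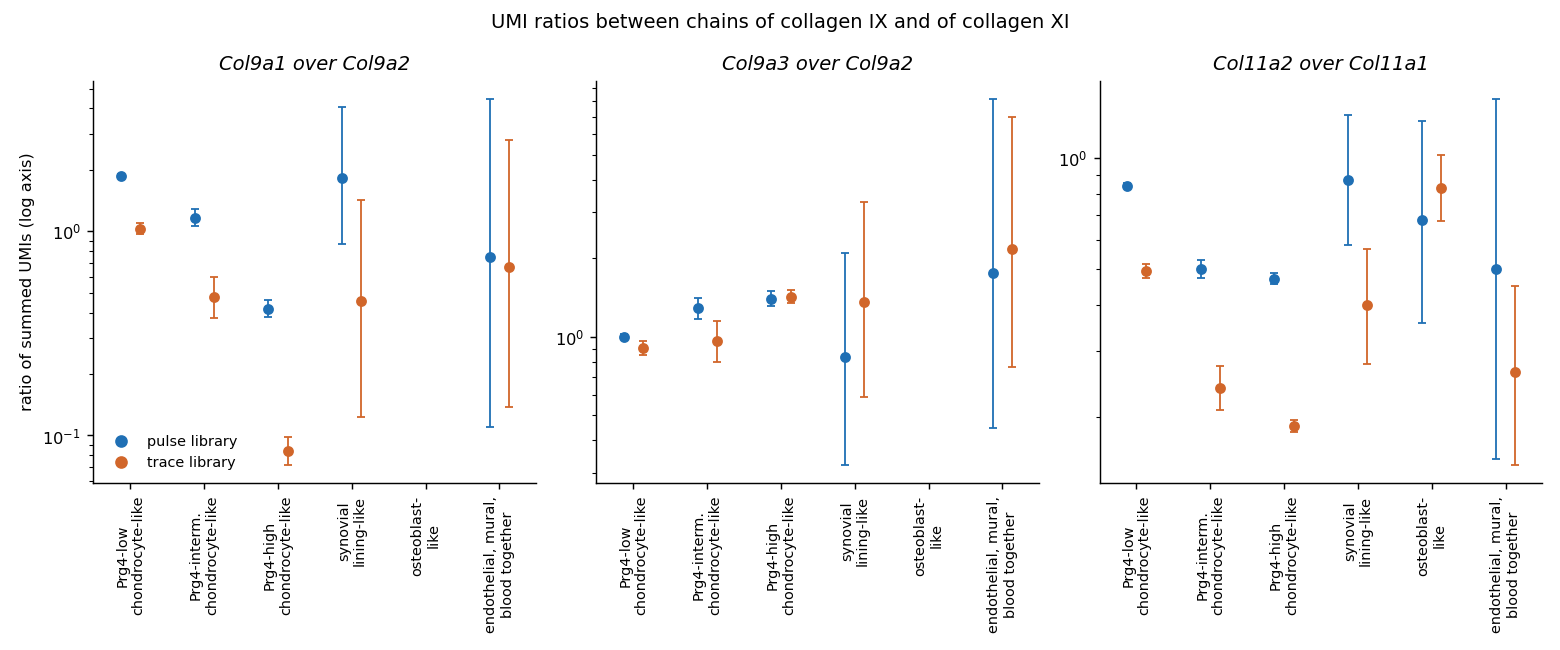
Ratios of summed UMIs (log axis) of Col9a1 to Col9a2, Col9a3 to Col9a2 and Col11a2 to Col11a1 in each group of cells, pulse in blue and trace in orange, with exact 95% counting intervals; no point is drawn where the denominator had 0 UMIs. In the 3 chondrocyte-like ranges the left and right panels have trace below pulse with intervals apart. Col9a3 over Col9a2 stays between 0.907 and 1.43 in these ranges. Its trace points are also below pulse with intervals apart in Prg4-low and Prg4-intermediate cells, while the intervals overlap in Prg4-high cells.

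Detection per cell was compared after thinning every cell to 2000 UMIs, which left out shallower cells (541 of 2598 pulse and 487 of 3936 trace Prg4-high cells, and 277 of 1597 and 74 of 513 Prg4-low cells). In Prg4-high cells Col2a1 had a UMI in 91.8% of pulse and 78.5% of trace cells (93.2% and 84.7% unthinned). Col11a1 was found in 73.3% and 69.2% (79.8% and 83.7% unthinned), which puts the libraries in opposite orders with and without thinning. Col11a2 was found in 55.1% and 26.5% (66.9% and 44.6% unthinned). Col9a2 and Col9a3 were found in 23.3% and 33.4% of thinned pulse cells and in 17.3% and 23.4% of trace cells. Col9a1 was found in 8.31% (7.16 to 9.59) of pulse and 1.22% (0.879 to 1.64) of trace cells (12.01% and 2.36% unthinned).

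The Col9a1 level of Prg4-high cells rested on few cells in both libraries. In pulse 312 of 2598 held the 614 UMIs, and 21 had 3 or more. In trace 93 of 3936 held the 181 UMIs, and 14 had 3 or more. In Prg4-low cells Col9a1 was found in 55.2% of pulse and 35.8% of trace cells after thinning (52.4% and 40.7% unthinned).

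The ranges also differed in joint detection. All 6 transcripts were found together in 44.5% (41.8 to 47.2) of thinned pulse and 23.5% (19.6 to 27.7) of thinned trace Prg4-low cells, but in 1.51% and 0.0870% of Prg4-high cells. The last share is 3 of 3449 cells. Col2a1 without any type IX chain was found in 44.7% and 48.0% of Prg4-high cells and in 19.9% and 17.3% of Prg4-low cells. None of the 6 was found in 1.65% of pulse and 7.34% of trace Prg4-high cells. In Prg4-low cells 2.88% (2.04 to 3.93) of the pulse and 19.1% (15.6 to 23.1) of the trace cells had no UMI of them. Among the 439 thinned trace Prg4-low cells, 84 had no UMI of the set and 103 had UMIs of all 6. The median of these 439 cells was 0 UMIs for Col9a1, Col9a2, Col9a3 and Col11a2, so a count of 0 does not show that a transcript was absent. Cluster 8, led by osteoblast genes, held 14.0% of trace Prg4-low cells before thinning. Its part in these shares was not tested.

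Levels also differed inside a range. Ibsp, which encodes bone sialoprotein, a matrix protein of mineralizing tissue, marked 284 of 1597 pulse and 112 of 513 trace Prg4-low cells at 3 or more UMIs. In pulse all 6 collagens were lower in the Ibsp-carrying cells, from a ratio of 0.293 (0.275 to 0.311) for Col9a1 to 0.596 (0.586 to 0.605) for Col2a1. In trace Col2a1 was slightly higher in these cells, at 1.17 (1.14 to 1.21), while the other 5 were lower, with ratios of 0.526 to 0.867. The Col2a1 difference thus had opposite directions in the libraries. The median depth of the Ibsp-carrying cells was 3708 against 4214 UMIs in pulse and 5516 against 4132 in trace.

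Prg4-low cells with 2 or more UMIs of cell cycle genes had higher levels of all 6 in pulse (302 cells), by 1.25-fold for Col11a1 to 1.59-fold for Col9a2. Their median depth was 8248 UMIs against 3555 in the other cells, and the part of that depth in the result was not tested. In trace the 53 such cells had ratios of 0.869 to 0.997. Among Prg4-high cells, those with 10 or more UMIs of Col10a1 per 10000, the collagen of hypertrophic cartilage, had less Col2a1 in both libraries, with ratios of 0.581 (0.567 to 0.594) in pulse and 0.558 (0.545 to 0.570) in trace. The type IX genes split the libraries here: Col9a2 was at 0.853 (0.763 to 0.952) in pulse and 1.42 (1.30 to 1.55) in trace, and Col9a3 at 0.837 (0.762 to 0.918) and 1.21 (1.12 to 1.31). Col9a1 was at 0.530 (0.436 to 0.640) and 1.16 (0.833 to 1.59).

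Osteoblast-like cells, defined by Bglap, Dmp1, Phex, Ifitm5 and Mepe, carried far more UMIs of the type XI genes than of the other 4. There were only 11 such cells in pulse and 53 in trace. Col11a1 was at 998 (663 to 1443) and 1020 (889 to 1166) CPM, which lies beside its 1130 and 909 CPM in Prg4-high cells. Col11a2 was at 677 (408 to 1058) and 845 (726 to 979) CPM, the trace value being above the 172 CPM of trace Prg4-high cells. Col2a1 had 3 and 27 UMIs, or 107 and 127 CPM. Col9a1 had 1 and 2 UMIs, or 35.7 (0.903 to 199) and 9.45 (1.14 to 34.1) CPM, which is too few to set apart from its 72.9 and 9.52 CPM in Prg4-high cells. Col9a2 and Col9a3 had 0 UMIs in both libraries, with exact upper limits of 131.5 CPM in pulse and 17.4 CPM in trace. Col11a1 over Col2a1 was 8.0 (5.35 to 12.4) in the trace osteoblast-like cells against 0.248 in Prg4-low cells. The reporter transcript Tdtomato had 1 UMI in these 53 cells.

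RNA from broken chondrocytes can enter other droplets, so the same transcripts were measured in cells that should not make them. In endothelial-, mural- and blood cell-like cells pooled (92 in pulse and 1104 in trace), Col2a1 was at 185 CPM (132 to 253) in pulse and 36.1 CPM (30.0 to 43.2) in trace. The trace value came from 121 UMIs, of which the top 1% of cells held 49.6% and a single cell 17, and by part it ran from 15.4 CPM in endothelial-like to 44.5 CPM in blood cell-like cells. The levels are 3.86% and 1.35% of the level in Prg4-high cells and 0.878% and 0.398% of its level in Prg4-low cells. Col2a1 had a UMI in 27.2% of these pulse cells and 6.61% of these trace cells, whose median depths were 1516 and 2252 UMIs. The unthinned shares of Prg4-high cells, 93.2% and 84.7% at median depths of 2908 and 4354 UMIs, are well above these. The level in these other cells was thus higher in pulse, in the same direction as the levels in chondrocyte-like cells. Cells with these markers and chondrocyte markers but no 4-fold lead were set aside as mixed, which can lower this level. Clusters 9 to 12, named endothelial-, mural- or blood cell-like, are free of that rule and also hold some chondrocyte-like and mixed cells. Over both libraries they had Col2a1 at 376 to 847 CPM and Col9a1 at 1.38 to 49.9 CPM.

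Relative to Prg4-high cells the level in the pooled endothelial-, mural- and blood cell-like cells, without mixed cells, differed from gene to gene. Col9a1 had 3 UMIs (14.2 CPM) in these pulse cells and 4 UMIs (1.19 CPM) in these trace cells, which equal 19.5% (4.01 to 57.3) and 12.5% (3.38 to 32.7) of its level in Prg4-high cells. Col9a2 and Col9a3 stood at 10.9% and 13.6% of the Prg4-high level in pulse and 1.58% and 2.40% in trace. Col11a1 and Col11a2 stood at 5.04% and 5.34% in pulse and 2.23% and 3.13% in trace. When the endothelial-like and blood cell-like level, again without mixed cells, was subtracted, all 6 genes remained lower in trace in both ranges. Col9a1 in Prg4-high cells then had a log2 ratio of -2.80 in place of -2.94, and Col9a2 of -0.49 in place of -0.62. The subtracted Col9a1 level rested on 1 endothelial-like and 1 blood cell-like UMI in pulse, and on 0 and 2 in trace. Clusters 9 to 12, with mixed cells, had Col9a1 at 1.38 to 49.9 CPM, a range that includes the 9.52 CPM of trace Prg4-high cells. The part of free RNA in the Col9a1 ratio could thus not be tested with so few UMIs. Col11a1 over Col2a1 in the pooled endothelial-, mural- and blood cell-like cells was 0.308 (0.147 to 0.5998) for the pulse library. For the trace library it was 0.562 (0.411 to 0.763), beside 0.339 in trace Prg4-high and 0.248 in trace Prg4-low cells. By part the trace ratio was 0.259 (0.0953 to 0.610) in mural-like, 0.550 (0.372 to 0.804) in blood cell-like and 1.21 (0.563 to 2.66) in endothelial-like cells. The top 1% of the 1104 trace cells held 54.4% of the Col11a1 UMIs.

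Synovial lining-like cells, which carried Prg4 at 29203 and 32279 CPM but Acan at only 46.9 and 34.6 CPM, showed these collagens near that background. Their Col2a1 was at 180 CPM in the pulse library and at 48.1 CPM in the trace library, close to 185 and 36.1 CPM in the endothelial, mural and blood cells. In trace the top 1% of synovial lining-like cells held 62.7% of its UMIs. Col9a1 was at 25.8 (16.2 to 39.1) and 1.11 (0.360 to 2.59) CPM, from 22 and 5 UMIs. Loose connective-like cells had Col2a1 at 240 and 26.9 CPM, and 0 Col9a1 UMIs in trace, with an exact upper limit of 2.76 CPM. Synovial lining-like cells that also passed the chondrocyte list, which includes Acan, were set aside as mixed unless they had a 4-fold lead. This rule can lower the collagen levels of the cells that were left. Among mixed cells, 234 (pulse) and 402 (trace) passed both lists. Over all mixed cells, Col2a1 stood at 2516 and 1492 CPM, beside 9776 and 16586 CPM of Prg4. Whether a high Prg4 level by itself comes with cartilage collagen transcripts was thus not tested.

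Genes that act with these collagens were counted from lists written for this purpose, by the same 2-fold rule. The shares of all measured genes to set beside the counts were 8.83% lower and 2.00% higher in Prg4-high cells. In Prg4-low cells they were 12.7% and 2.98%. Of 12 measured cartilage matrix partners in Prg4-high cells, 2 were lower and 0 higher in trace, with a median log2 ratio of -0.09. The lower ones were Matn2, which encodes matrilin-2, at 38.5 and 16.2 CPM, and Cnmd, which encodes the anti-angiogenic protein chondromodulin, at 118 and 54.0 CPM. Dcn, which encodes the fibril-binding proteoglycan decorin, was 1.79-fold higher, at 5721 and 10235 CPM, and Bgn had a ratio of 0.601. In Prg4-low cells 4 of 16 were lower and 0 higher, and Cnmd had a ratio of 1.04 (0.996 to 1.09). The proteoglycan partners thus did not share 1 direction.

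None of the 4 measured regulators passed 2-fold in Prg4-high cells, though their median log2 ratio was -0.80. Sox9, like Cnmd above, is a gene of the list that admits cells as chondrocyte-like, so its level is conditioned on that choice. It went from 3371 CPM in pulse to 1693 in trace, a ratio of 0.502 (0.494 to 0.511). Sox6 had a ratio of 0.546 (0.527 to 0.566) and Sox5 of 0.605 (0.595 to 0.615), and Arid5b, which encodes a cofactor of SOX9, 0.922 (0.840 to 1.01). In Prg4-low cells Sox9 was again at 0.508 (0.489 to 0.527), whereas Sox6 and Sox5 were at 0.820 and 0.829, and 0 of 5 passed. Of 19 genes for procollagen folding, modification and export, 1 was lower in Prg4-high cells, Creb3l2 at 0.498 (0.476 to 0.521), a transcription factor that drives genes for collagen secretion, and 2 were lower in Prg4-low cells. Sec23a, a coat protein gene for export from the endoplasmic reticulum, was at 0.575 in Prg4-high and 0.524 in Prg4-low cells. No gene of this list was 2-fold higher in either range, which for 19 genes is near the 2.00% and 2.98% of all genes.

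Of 6 measured genes for processing and cross-linking in Prg4-high cells, 1 was lower and 1 higher. Both encode lysyl oxidases, which start the cross-links between collagen molecules. Lox had 818 CPM in pulse and 362 in trace, 2.26-fold lower, and Loxl4 45.3 and 171 CPM, 3.78-fold (3.39 to 4.21) higher. In Prg4-low cells Lox was 5.19-fold lower (439 and 84.7 CPM) and Loxl4 1.51-fold higher, and 1 of 8 was lower and 1 higher. Of the collagen breakdown genes, 0 of 3 measured passed in Prg4-high cells, and 2 of 5 were higher in Prg4-low cells. Mmp13, the main collagenase acting on type II collagen, was one of them, at 242 and 714 CPM.

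Other collagens went in both directions. In Prg4-high cells 1 of 11 was at least 2-fold higher in trace, Col1a1 of bone and fibrous tissue at 46.3 and 143 CPM, and 0 were 2-fold lower. Col10a1 had a ratio of 0.703 (0.692 to 0.713) there, and Col6a3 and Col12a1 had ratios of 1.40 and 1.42. In Prg4-low cells 5 of 11 were higher and 1 was lower, with a median log2 ratio of 0.50. Col1a1 there was at 149 CPM in pulse and 4431 in trace, 29.7-fold higher, while Col10a1 was at 2840 and 534 CPM, 5.32-fold lower. The summed level of the osteoblast markers in Prg4-low cells was 58.6 CPM in pulse and 159 CPM in trace, and cluster 8 held 14.0% of these trace cells. Their part in the Col1a1 and Mmp13 values was not tested.

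Across the 15 sums of cells (cell group by library, each with 50 or more cells), the 6 genes had alike profiles of log2(CPM + 10). Pearson correlations between pairs ranged from 0.803 (Col9a3 with Col11a2) to 0.990 (Col9a2 with Col9a3), and Col11a1 with Col11a2 reached 0.977. These sums share libraries and differ in depth, so the values are descriptions. Among 6380 other genes, the profile most like the mean of the 6 was that of Foxa3 (0.980), followed by Mia (0.975), Cnmd (0.966), Snorc (0.961) and Chadl (0.954), of which Cnmd and Snorc had helped to define the cells. The genes nearest to Col9a1 were Fxyd2 (0.979), Matn3 (0.974), itself a defining gene, and Unc5c (0.963). Col11a1 had Scube1 (0.946), Kcnma1 (0.943) and Chst11 (0.942) nearest to it, and Col11a2 had Chst11 (0.946), Scube1 (0.931) and Itga10 (0.928). Chadl, also among the 5 nearest to the mean, was the gene nearest to both Col9a2 (0.984) and Col9a3 (0.980). None of the 3 genes nearest to Col9a1 was among the 3 nearest to Col9a2 or Col9a3. The type XI genes shared Scube1 and Chst11 with each other.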

How the data were processed

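For each of the 2 libraries the authors deposited a matrix of unnormalized UMI counts. The counts came from Cell Ranger 7.1.0 per the file headers, while the submitters' processing notes name Cell Ranger 3.0.1 with build mm10, and also STAR, HTSeq, Seurat and DESeq2 with no role given. Whether introns were counted, and on which annotation, is not given in the sources used here. Libraries held 23306063 (pulse) and 40284041 (trace) UMIs.

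Members and gene lists were chosen with earlier results of these data known. UMIs were summed per marker-defined group and library and divided by the summed UMIs (CPM). Ratios carry exact conditional Poisson intervals, shares Clopper-Pearson intervals, both at 95%. Genes with 20 CPM or more in either library counted as measured, and a gene with 0 UMIs was set at 3. Cells past several marker lists without a 4-fold lead were set aside as mixed (393 and 762). Scrublet, run in scanpy 1.11.5, marked 0 doublets in either library and so had not worked. Instead the top 5% of scores were removed as an alternative. Clusters came from 2000 variable genes without the 6 members, 30 components and leidenalg 0.10.2 at resolution 0.5. Up to 4 genes per list were named, those with the largest absolute log2 ratio in Prg4-high cells, and for likeness the 5 highest correlations with the mean of the 6 genes and the 3 highest for each gene, leaving out mitochondrial, ribosomal protein and predicted genes. Intervals were computed in scipy 1.17.1 and tables in pandas 2.3.3 under Python 3.11.15. The scripts were tested on simulated data.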

Additional observations from a re-analysis of the deposited data

Results flagged for a closer look

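All 6 collagen transcripts were also found in the barcodes that the filter on genes and mitochondrial UMIs had left out, 330 in pulse and 1176 in trace, which enter no comparison above. Their levels exceeded that of 3 UMIs in the same barcodes, taken as the limit of a count of 0, which is 13.4 CPM in pulse and 3.01 CPM in trace. In pulse the level was 3911 CPM for Col2a1, 320 CPM for Col9a1, 165 CPM for Col9a2, 289 CPM for Col9a3, 997 CPM for Col11a1 and 1126 CPM for Col11a2. In trace it was 664 CPM for Col2a1, 29.1 CPM for Col9a1, 36.1 CPM for Col9a2, 61.2 CPM for Col9a3, 284 CPM for Col11a1 and 107 CPM for Col11a2. As in the kept chondrocyte-like cells, each transcript was lower in trace.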

How the results depend on the processing

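No paired analysis was possible because each group has 1 library. The 6 genes were lower in trace under each of the 15 alternatives run for Prg4-high and the 13 run for Prg4-low cells. Among them were stricter cell filters and marker thresholds, removal of the top 5% of Scrublet scores and a mean over cells. For Prg4-low cells, an upper Prg4 limit of 50 per 10000 left the same 1597 and 513 cells and could not change the result. Leaving Prg4 out of the total could hardly do so there, with Prg4 at 148 and 233 CPM. The alternatives that used cells of 1 cluster, or of 1 Prg4 bin, or left Prg4 out of the total, were chosen after seeing the data. Col9a1 and Col11a2 stayed 2-fold lower under each of the 15 and the 13. In the bin of 3 to 10 Prg4 UMIs, which is part of the Prg4-low range, Col9a1 had a ratio of 1.03 (0.918 to 1.16). With the named clusters in place of the Prg4 ranges, the log2 ratio in the superficial-zone-like ones was -1.47 for Col2a1 in place of -0.84 and -1.81 for Col9a1 in place of -2.94. This was another set of cells: clusters 3 and 14, with 1350 pulse and 792 trace cells, and without the unnamed clusters 1 and 2. Cluster 3 also brought in 440 Prg4-low cells in pulse and 5 in trace. Without ribosomal RNA-associated transcripts, Col11a1 in Prg4-high cells had a log2 ratio of -0.19 in place of -0.31.

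Counts over all genes moved more. In Prg4-high cells, 551 lower and 125 higher genes became 346 and 268 with median scaling, 934 and 372 with the endothelial-like and blood cell-like level subtracted and 5439 and 768 with no floor. A floor of 50 CPM left 277 lower genes, and the named clusters gave 196 higher ones. In Prg4-low cells, 833 lower and 195 higher genes became 478 and 387 with median scaling, 390 and 118 at the floor of 50 CPM and 3310 and 1327 with no floor. The higher genes there numbered 477 after subtraction and 324 in cluster 7 alone. Fewer or more genes are tested by construction under another floor, and for the rest the cause was not tested. Depth limits the Col9a1 values in trace, which rest on 181 UMIs in Prg4-high cells, 117 in Prg4-intermediate cells and 33 to 59 in clusters 1, 2 and 3.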

Other observations

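Cells outside the named groups also carried the collagens. In the cells with no marker call (563 in pulse and 1201 in trace), Col2a1 had 1028 and 193 CPM, Col11a1 344 and 152 CPM and Col11a2 221 and 28.3 CPM, in this order. Of the mixed cells, 362 of 393 in pulse and 574 of 762 in trace combined chondrocyte markers with those of another list, most often the synovial lining list (234 and 402 cells). Col2a1 made up 69.3% of their collagen II, IX and XI UMIs in pulse and 69.1% in trace, beside 69.0% and 66.2% in Prg4-high cells.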
